A study of Mus musculus with 8 samples.

Results

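A set of 8 genes of fatty acid elongation and desaturation were followed in mouse livers that had received AAV8-GFP or AAV8-AGXT. They were the elongases Elovl1, Elovl2, Elovl3 and Elovl5, the desaturases Fads1, Fads2 and Fads3, and the stearoyl-CoA desaturase Scd2. They were picked by symbol, through the Ensembl identifier of each count, and are 8 of the 52636 genes in the tables. All 8 mice were male C57BL/6J animals with no engineered allele. At 7 weeks of age they received an adeno-associated virus of serotype 8 (AAV8) by intraperitoneal injection, carrying either GFP (mice 303, 311, 314 and 315) or human AGXT (mice 308, 309, 316 and 319). The TBG promoter, which is active in hepatocytes, drove both inserts, so that other liver cells were not the intended target. All mice started the MASH diet, rich in fat, fructose and cholesterol, at 8 weeks of age and ate it for 24 weeks. AGXT encodes alanine-glyoxylate aminotransferase, which removes the oxalate precursor glyoxylate, and the comparison asks how its overexpression changed the liver transcriptome during MASH. The human transgene was not analysed here.

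Elongases of the ELOVL family carry out the condensation that begins each round of fatty acid elongation in the endoplasmic reticulum, and each member prefers chains of a certain length and saturation. Desaturases of the same membrane insert double bonds with electrons from cytochrome b5. FADS2 and FADS1 act in turn, with ELOVL5 and ELOVL2 between and after them, to turn the dietary essential fatty acids into arachidonic, eicosapentaenoic and docosahexaenoic acid, and the liver is a main site of this pathway.

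Fads1, Fads2 and Fads3 form a cluster on chromosome 19 (GRCm38). Fads3 (ENSMUSG00000024664) spans chr19:10041569-10060110 on the plus strand and Fads2 (ENSMUSG00000024665) chr19:10062765-10101746 on the minus strand, so that the ends of the 2 genes lie 2654 bp apart. Fads1 (ENSMUSG00000010663) spans chr19:10182888-10196877 on the plus strand, and its start site lies 81141 bp from that of Fads2. Scd2 (ENSMUSG00000025203, chr19:44293674-44306864) and Elovl3 (ENSMUSG00000038754, chr19:46131897-46135694) are on the plus strand of the same chromosome. Elovl1 (ENSMUSG00000006390) is at chr4:118428093-118432953, plus strand, Elovl2 (ENSMUSG00000021364) at chr13:41182381-41220405, minus strand, and Elovl5 (ENSMUSG00000032349) at chr9:77917364-77984519, plus strand. Exons of Elovl1 share 53 bases with the antisense gene Cdc20, those of Elovl3 share 10 bases with the antisense gene Pitx3, and those of Scd2 hold the 61 bases of Mir5114. Because the strand setting of the counting is not stated, the small part of the Elovl1 and Elovl3 counts that falls in these bases is uncertain.

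Promoter sequence was taken from RefSeq (GRCm38.p6), which matched 5 of the 8 genes, leaving Fads1, Elovl3 and Scd2. The 250 bases before the RefSeq start site are shown for Fads3 and Elovl1, the genes whose groups of mice did not overlap, and for Elovl5, whose groups overlapped. The windows are chr19:10041298-10041547 for Fads3, chr4:118427843-118428092 for Elovl1 and chr9:77917115-77917364 for Elovl5, all on the plus strand and printed 5′ to 3′. Capitals mark each CCAAT box (CCAAT or its reverse complement ATTGG) and each GC box (GGGCGG or its reverse complement CCGCCC).
Fads3: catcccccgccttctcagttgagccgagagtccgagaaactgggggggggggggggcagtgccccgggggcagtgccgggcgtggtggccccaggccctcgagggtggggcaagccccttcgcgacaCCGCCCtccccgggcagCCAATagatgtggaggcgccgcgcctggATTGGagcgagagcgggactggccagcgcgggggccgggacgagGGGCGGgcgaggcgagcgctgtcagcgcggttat
Elovl1: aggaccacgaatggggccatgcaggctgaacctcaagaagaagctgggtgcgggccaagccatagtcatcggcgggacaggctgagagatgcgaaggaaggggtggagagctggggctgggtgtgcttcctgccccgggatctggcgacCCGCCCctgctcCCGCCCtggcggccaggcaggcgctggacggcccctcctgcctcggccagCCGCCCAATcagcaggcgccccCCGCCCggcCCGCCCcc
Elovl5: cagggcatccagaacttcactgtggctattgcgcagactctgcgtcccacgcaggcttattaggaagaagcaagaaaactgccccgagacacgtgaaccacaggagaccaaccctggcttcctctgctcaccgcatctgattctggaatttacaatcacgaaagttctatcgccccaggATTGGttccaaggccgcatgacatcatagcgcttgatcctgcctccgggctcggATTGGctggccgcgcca
The Fads3 window held 2 CCAAT boxes and 2 GC boxes. The Elovl1 window held 5 GC boxes and 1 CCAAT box, which shares bases with one of the GC boxes. The Elovl5 window held 2 CCAAT boxes and 0 GC boxes. In the windows of the other 2 matched genes there were 5 GC boxes for Elovl2 and 1 for Fads2, with 0 CCAAT boxes in either. The Fads2 window (chr19:10101504-10101753) starts from a RefSeq start site 243 bases inside the GENCODE gene, so most of it lies within Fads2 as placed above and not before it. Among 32851 promoter windows of the same length, 33.8% held CCAAT and 32.7% held GGGCGG. The nuclear receptor half-site AGGTCA, found in 14.0% of all windows, and the sterol element TCACNCCAC, found in 1.05%, were searched on both strands and matched in 0 of the 5 windows. These matches describe letters in the sequence and were not tied to binding of a factor.

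Read pairs counted on genes ranged from 19747909 to 28780140 in AAV8-GFP mice and from 17095433 to 23940200 in AAV8-AGXT mice. Mouse 308 (AAV8-AGXT) had the lowest share of its tallied pairs on genes, 56.3%. Each gene below is given in counts-per-million (CPM), scaled by TMM, a factor that corrects libraries for differences in composition. The hepatocyte marker list (Alb, Apoa1, Ttr, Cps1, Tat and Hnf4a) was abundant in every liver, with a summed level of 43141 to 52172 CPM with GFP and 52950 to 74027 CPM with AGXT. The tissue is bulk liver, where fewer cells of a type and less RNA per cell cannot be told apart.

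Of the 8 genes, all had enough counts to be tested, and Fads3 alone passed the test. By the quasi-likelihood test of edgeR with Benjamini-Hochberg adjustment over 15248 genes (adjusted p under 0.05), 1 of the 8 was higher and 0 were lower in AAV8-AGXT livers, against 2.45% of all tested genes higher and 1.90% lower. At an unadjusted p under 0.05, 3 of the 8 genes were higher (Elovl2, Fads2 and Fads3) and 2 were lower (Elovl1 and Scd2) by edgeR, where 13.5% of all tested genes were higher and 12.6% were lower at that limit. Every AAV8-AGXT mouse was above every AAV8-GFP mouse for 1 gene (Fads3) and below for 1 gene (Elovl1), whereas 8.93% of all tested genes were without overlap in the upward and 7.63% in the downward direction. DESeq2 called 2 of the 8 genes higher (Fads2 and Fads3) and 0 lower, where it called 6.29% of its 16752 genes higher and 6.11% lower. The median log2 fold change was 0.26 over the 8 genes, with a range from -0.75 to 1.16, and 0.018 over all genes tested.

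**Figure D1:**
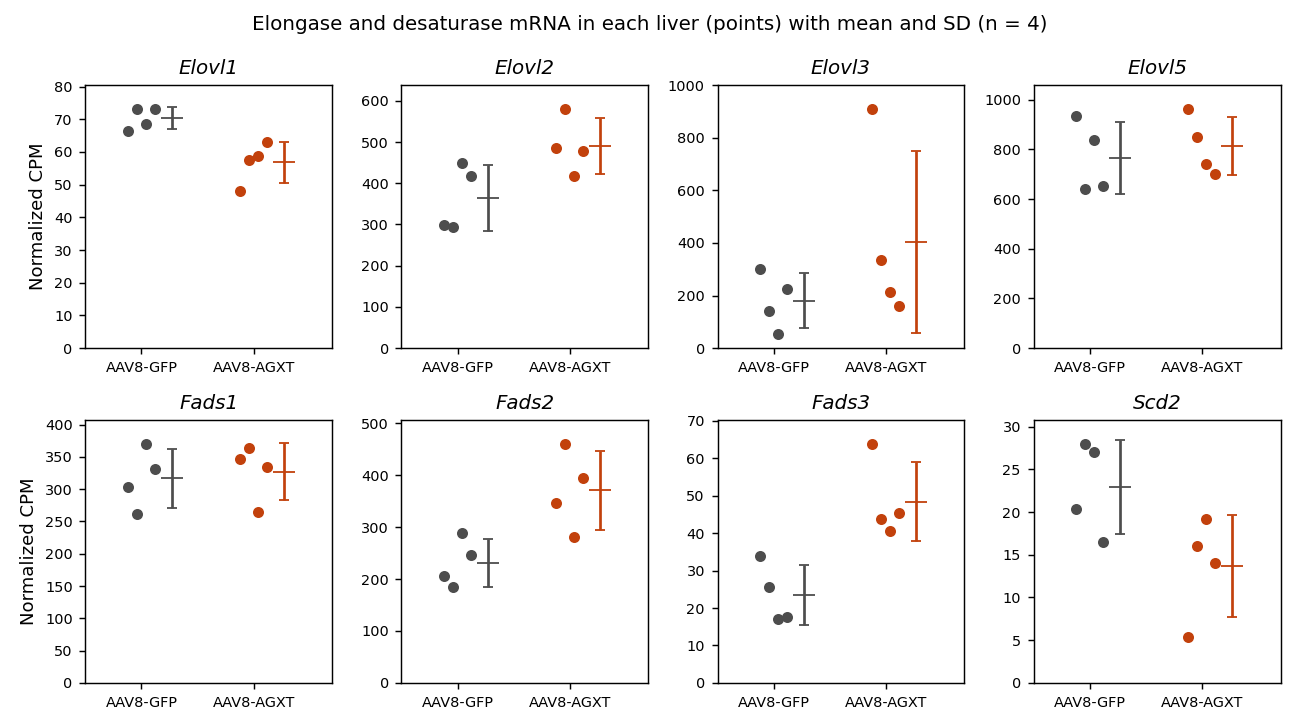
Normalized CPM of each of the 8 genes (y axis, from 0, with its own scale for each gene) in the 4 AAV8-GFP and the 4 AAV8-AGXT mice. Each point is 1 mouse and the bar is the group mean with its SD. The groups stand apart for Fads3, where the AAV8-AGXT mice lie at 40.7 CPM or above and the AAV8-GFP mice at 33.9 CPM or below, and for Elovl1, and they overlap for the other 6 genes.

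Fads3, whose product resembles the other front-end desaturases in sequence and is known to introduce a double bond into sphingoid bases, rose 2.05-fold. AAV8-GFP mice 303, 311, 314 and 315 had 33.9, 25.6, 17.2 and 17.5 CPM. AAV8-AGXT mice 308, 309, 316 and 319 had 63.9, 43.7, 40.7 and 45.4 CPM. The highest AAV8-GFP liver thus lay below the lowest AAV8-AGXT liver, and mouse 308 stood above the other AAV8-AGXT mice. The group means were 23.5 ± 7.93 CPM with GFP and 48.4 ± 10.5 CPM with AGXT (SD, n = 4 each). On the log2 scale the fold change was 1.04 (standard error, SE, 0.23, edgeR adjusted p = 0.0427), and Fads3 ranked 437 of 15248 genes by p-value. DESeq2 gave an adjusted p of 0.00147 and limma-voom one of 0.0378. The edgeR call was close to its limit, because it was kept without mouse 303 (adjusted p = 0.0398 from edgeR) and lost without any one of the other 7 mice, with adjusted p from 0.0528 to 0.143. The log2 fold change lay between 0.86 and 1.27 in these 8 fits, with the lowest value without mouse 308 (edgeR adjusted p = 0.0891). With upper-quartile factors (adjusted p = 0.0561 from edgeR) or total counts (adjusted p = 0.0611 from edgeR) in place of TMM it also missed the limit.

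Fads2, the desaturase that catalyses the first step on linoleic and alpha-linolenic acid, had a higher mean in AAV8-AGXT livers but did not pass in edgeR. AAV8-GFP mice 303, 311, 314 and 315 had 204.9, 184.4, 288.4 and 246.7 CPM. In AAV8-AGXT mice 308, 309, 316 and 319 the values were 346.4, 460.7, 281.2 and 394.8 CPM. The only overlap was between AAV8-GFP mouse 314 and AAV8-AGXT mouse 316. The means were 231.1 ± 46.2 and 370.8 ± 75.9 CPM (SD, n = 4 each), 1.60-fold apart (log2 fold change 0.68, SE 0.19, edgeR adjusted p = 0.0684). DESeq2 called it (adjusted p = 0.0113), and limma-voom did not (adjusted p = 0.0624).

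Fads1, which makes arachidonic and eicosapentaenoic acid from the products of the Fads2 step, had nearly the same mean in both groups. Its levels were 303.2, 260.9, 370.6 and 331.6 CPM in AAV8-GFP mice 303, 311, 314 and 315. They were 346.0, 364.2, 264.0 and 334.1 CPM in AAV8-AGXT mice 308, 309, 316 and 319. The 2 ranges lay almost on top of each other. The means were 316.6 ± 46.3 and 327.1 ± 43.8 CPM (SD, n = 4 each; log2 fold change 0.047, SE 0.15, edgeR adjusted p = 0.872).

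Since Fads1 and Fads2 act in one pathway, their ratio was taken within each liver, where library scaling cancels. The ratio of Fads1 to Fads2 CPM was 1.48, 1.42, 1.29 and 1.34 in AAV8-GFP mice 303, 311, 314 and 315. It was 0.999, 0.790, 0.939 and 0.846 in AAV8-AGXT mice 308, 309, 316 and 319. Each AAV8-GFP liver thus had a higher ratio than each AAV8-AGXT liver. The ratio is not corrected for exon length and does not say which of the 2 genes was more abundant. On the log2 scale the mean ratio was 0.46 ± 0.088 in AAV8-GFP and -0.17 ± 0.15 in AAV8-AGXT mice (SD, n = 4 each), a difference of -0.63 (exact permutation, two-sided, p = 0.0286, which is the lowest value 4 mice against 4 can give). Of 3 ratios compared, adjustment by Benjamini-Hochberg gave 0.0857 for this one (exact permutation test), so it did not pass at 0.05 after adjustment, which 1 ratio alone could not do in this design. Leaving out each mouse in turn gave differences from -0.69 to -0.57. At least 5012 counts for each of these genes in each liver lay behind the ratios.

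**Figure D2:**
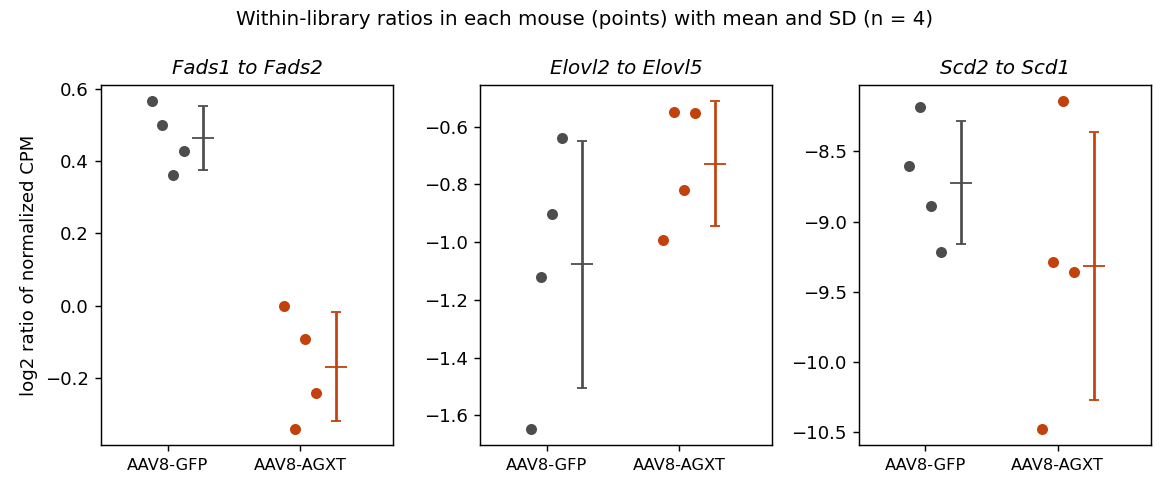
Log2 ratio of CPM within each liver (y axis) for Fads1 to Fads2, Elovl2 to Elovl5 and Scd2 to Scd1, with 1 point for each mouse and the group mean with its SD. Only the Fads1 to Fads2 ratio separates the groups, with 0.36 or more in AAV8-GFP and -0.0017 or less in AAV8-AGXT mice.

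Elovl5 and Elovl2 elongate polyunsaturated fatty acids, Elovl5 the shorter and Elovl2 the longer ones on the way to docosahexaenoic acid. Elovl2 had 298.4, 294.2, 448.8 and 417.9 CPM in AAV8-GFP mice 303, 311, 314 and 315. In AAV8-AGXT mice 308, 309, 316 and 319 it had 484.5, 580.4, 418.6 and 478.5 CPM. Mice 303 and 311 were low and the other AAV8-GFP mice came near to or into the AAV8-AGXT range. The means were 364.8 ± 80.2 and 490.5 ± 66.9 CPM (SD, n = 4 each; log2 fold change 0.43, SE 0.18, edgeR adjusted p = 0.161). For Elovl5 the AAV8-GFP mice ranged from 640.0 to 934.0 CPM and the AAV8-AGXT mice from 702.1 to 963.3 CPM. These ranges overlapped over most of their length (766.0 ± 144.6 and 813.6 ± 117.8 CPM, SD, n = 4 each; log2 fold change 0.087, SE 0.17, edgeR adjusted p = 0.783). The log2 ratio of Elovl2 to Elovl5 was -1.08 ± 0.43 in AAV8-GFP and -0.73 ± 0.22 in AAV8-AGXT mice (SD, n = 4 each). This difference of 0.35 did not pass (exact permutation, two-sided, p = 0.2, 0.286 after adjustment over the 3 ratios), and the groups overlapped.

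Elovl1 makes saturated and monounsaturated very-long-chain fatty acids that enter sphingolipids. It had 66.3, 73.2, 68.7 and 73.1 CPM in AAV8-GFP mice 303, 311, 314 and 315. It had 48.2, 57.6, 58.8 and 63.0 CPM in AAV8-AGXT mice 308, 309, 316 and 319. All AAV8-AGXT livers were below all AAV8-GFP livers, with mouse 308 the lowest. The group means were 70.3 ± 3.41 CPM with GFP and 56.9 ± 6.26 CPM with AGXT (SD, n = 4 each), a small difference with a small spread (log2 fold change -0.31, SE 0.10) that did not pass (adjusted p = 0.0995 from edgeR, 0.0631 from DESeq2 and 0.101 from limma-voom). Without mouse 308 it was -0.25 (edgeR adjusted p = 0.167). With total counts in place of TMM Elovl1 did pass (log2 fold change -0.54, adjusted p = 0.0419 from edgeR), but that scaling moved the median log2 fold change of all genes from 0.018 to -0.22 and the calls over all genes to 144 higher and 857 lower, from 374 higher and 290 lower with TMM.

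Elovl3 elongates saturated and monounsaturated chains, and its level in mouse liver is known to follow the time of day and to be higher in males. It was the most variable of the 8 genes. AAV8-GFP mice 303, 311, 314 and 315 had 300.3, 142.8, 55.0 and 223.7 CPM, and AAV8-AGXT mice 308, 309, 316 and 319 had 910.4, 336.9, 211.7 and 159.3 CPM. Mouse 308 stood far above all others. Mouse 309 lay above the highest AAV8-GFP mouse, and mice 316 and 319 lay within the AAV8-GFP range. The group means were 180.5 ± 105.5 CPM with GFP and 404.6 ± 345.4 CPM with AGXT (SD, n = 4 each; log2 fold change 1.16, SE 0.60, edgeR adjusted p = 0.252). Although this was the largest log2 fold change of the 8, it was 0.37 without mouse 308.

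Scd2 encodes a stearoyl-CoA desaturase, which makes monounsaturated from saturated fatty acids. Scd1 is the main isoform of adult mouse liver. Scd2 had 20.3, 28.0, 27.0 and 16.5 CPM in AAV8-GFP mice 303, 311, 314 and 315, and 5.32, 16.0, 19.2 and 14.0 CPM in AAV8-AGXT mice 308, 309, 316 and 319. Mouse 308 was lowest, with 77 counts, and the other AAV8-AGXT mice reached into or near the AAV8-GFP range. The means were 22.96 ± 5.48 and 13.6 ± 5.95 CPM (SD, n = 4 each; log2 fold change -0.75, SE 0.33, edgeR adjusted p = 0.183), and the log2 fold change was -0.50 without mouse 308. Scd2 has close paralogs, and how far reads were split among them was not tested. The log2 ratio of Scd2 to Scd1 was -8.72 ± 0.44 in AAV8-GFP and -9.32 ± 0.95 in AAV8-AGXT mice (SD, n = 4 each). This difference of -0.59 did not pass (exact permutation, two-sided, p = 0.286, and 0.286 after adjustment), and the groups overlapped.

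**Figure D3:**
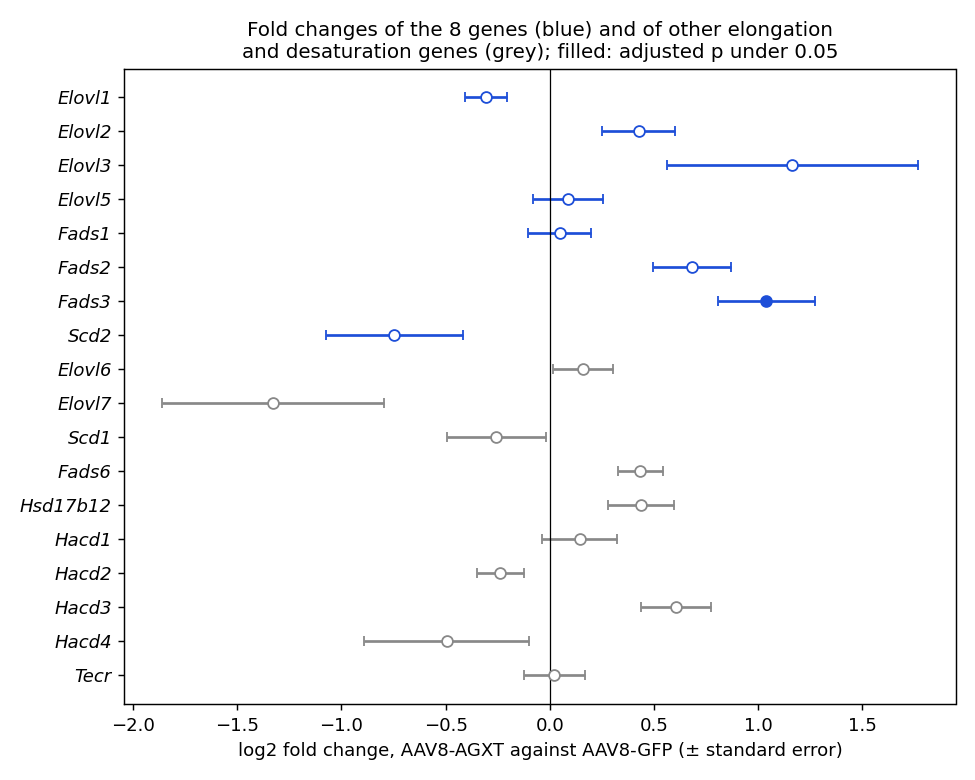
Log2 fold change of AAV8-AGXT against AAV8-GFP (x axis, 0 marked) for the 8 genes (blue), with the standard error from edgeR as a bar. Grey symbols are the tested genes among the other elongases and desaturases and the other steps of the elongation cycle. Filled symbols mark an adjusted p under 0.05. Fads3, at 1.04, is the gene that passed the test, and Elovl3, at 1.16, has the widest error.

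Marker genes of other liver cells were set beside these differences. The stellate cell and fibroblast list summed to 516.1 to 923.8 CPM with GFP and 203.8 to 577.0 CPM with AGXT, with 1 of 7 genes called lower (Acta2, log2 fold change -0.99, adjusted p = 0.0427 from edgeR) and 5 of 7 lower at an unadjusted p under 0.05. The macrophage list summed to 420.3 to 674.6 CPM and 215.8 to 732.0 CPM, with 0 of 7 called by edgeR and 2 of 7 lower at an unadjusted p under 0.05. Mouse 308 had the lowest sum of both lists, the highest sum of the hepatocyte list and the lowest Elovl1 and Scd2. In the hepatocyte list 1 of 6 genes was called higher (Cps1, log2 fold change 0.96, adjusted p = 0.0279 from edgeR), and 3 of 6 were higher at an unadjusted p under 0.05. The summed levels of the groups did not overlap, by a small margin (at most 52172 CPM with GFP and at least 52950 CPM with AGXT). Taken singly, Cps1 and Hnf4a did not overlap between the groups, whereas Alb, Apoa1, Ttr and Tat did. Without overlap in the downward direction were 4 of 7 stellate cell and fibroblast genes and 1 of 7 macrophage genes, against 7.63% of all tested genes. Cholangiocyte markers summed to 23.5 to 62.6 CPM with GFP and 13.7 to 33.2 CPM with AGXT, with 0 of 4 called by edgeR and 4 of 4 lower at an unadjusted p under 0.05. Lymphocyte, neutrophil and endothelial lists had 0 genes called by edgeR and 0 at an unadjusted p under 0.05, with sums of at most 8.91, 12.4 and 208.3 CPM, and Ly6g was at 0 in all AAV8-GFP mice. Of the adipocyte markers Adipoq and Plin1 were too scarce to test, and Cfd was called higher (log2 fold change 1.93, adjusted p = 0.0487 from edgeR). The part of cell composition in the differences of Fads3, Elovl1 and Scd2 was not tested.

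Levels were next compared between genes, as normalized CPM per kilobase of exon. In AAV8-GFP livers Elovl5 led with 217.5 ± 41.1, above all others. Elovl2 (92.0 ± 20.2), Elovl3 (91.4 ± 53.4), Fads2 (70.1 ± 14.0) and Fads1 (65.8 ± 9.61) followed, and neighbours among these overlapped between mice. Elovl1 (25.8 ± 1.25) was lower than each of them, and Fads3 (6.20 ± 2.09) and Scd2 (4.20 ± 1.00) were the scarcest and overlapped each other (SD, n = 4 throughout). In AAV8-AGXT livers the order was Elovl5 (231.0 ± 33.4), Elovl3 (204.8 ± 174.9), Elovl2 (123.7 ± 16.9), Fads2 (112.5 ± 23.03), Fads1 (68.0 ± 9.11), Elovl1 (20.9 ± 2.30), Fads3 (12.8 ± 2.78) and Scd2 (2.50 ± 1.09), with overlap between neighbours from Elovl5 to Fads2 and none from Fads2 downward (SD, n = 4 throughout). Fads2 and Fads1, which overlapped in AAV8-GFP mice, were therefore apart in AAV8-AGXT mice, as were Fads3 and Scd2.

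**Figure D4:**
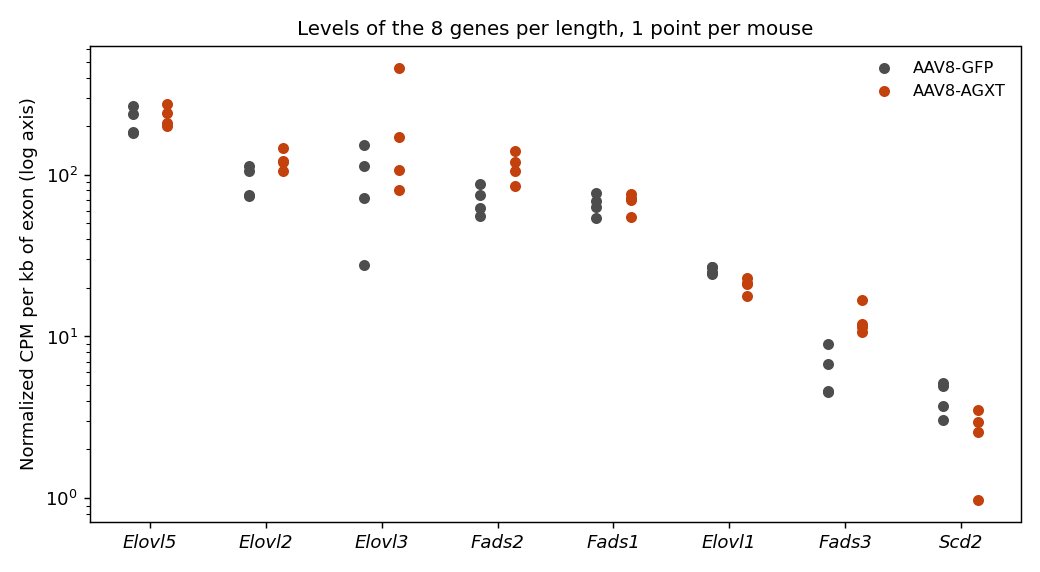
Level of each gene as normalized CPM per kilobase of exon (log axis) in the 2 groups, with 1 point for each mouse. Elovl5 is highest in both groups on average and Scd2 is lowest, and Fads3 separates from Scd2 in AAV8-AGXT mice.

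Some of the 8 genes varied together between mice of the same group. After the group mean of log2 CPM was subtracted, 3 of 28 pairs had a Pearson correlation above 0.8 over the 8 mice. These were Fads1 with Fads2 (r = 0.93, Spearman's rho = 0.93), Elovl2 with Fads2 (r = 0.92, rho = 0.90) and Elovl2 with Fads1 (r = 0.87, rho = 0.90). All 3 genes belong to the polyunsaturated branch. Elovl5, of the same branch, followed them less closely, with r = 0.10 with Elovl2, 0.20 with Fads2 and 0.44 with Fads1. How often other pairs of genes exceed 0.8 was not tested. Without the 2 mice farthest from the median of Fads1 (first pair) or of Elovl2 (the other pairs), the correlations were 0.86, 0.82 and 0.77 (n = 6). Elovl1 and Elovl5 moved in opposite directions (r = -0.83, rho = -0.90, and -0.76 over the 6 mice nearest to the median of Elovl1). The median over all 28 pairs was -0.068. These values describe 8 livers whose genes share library and depth. Single mice often set the range, since mouse 311 held the highest or lowest value of all 8 mice for 6 genes and mouse 308 for 5 genes. Among all tested genes, those most like Fads3 in group-centred log2 CPM were Dgka (r = 0.991), 3930402G23Rik (0.983), Ppm1m (0.980), Chd6 (0.977) and Klf2 (0.974). Those most like Elovl1 were Cd300ld (0.990), Fpr2 (0.990), Ifi30 (0.989), Lst1 (0.988) and Was (0.988), again over the 8 mice. Both lists hold only the highest values among 15248 tested genes. Whether such values exceed what 8 mice give for unrelated genes was not tested.

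The remaining enzymes of the same families had 0 genes called by edgeR, of 4 tested, with 1 higher and 1 lower at an unadjusted p under 0.05. Fads6, a desaturase-like protein, came closest, with no overlap between the groups (log2 fold change 0.43, SE 0.11, edgeR adjusted p = 0.0535). It passed in DESeq2 (adjusted p = 0.00508) and, narrowly, in limma-voom (adjusted p = 0.0499). The others were Scd1 (log2 fold change -0.26, adjusted p = 0.524 from edgeR), Elovl6 (0.16, adjusted p = 0.520 from edgeR), which extends palmitate to stearate, and Elovl7 (-1.33, adjusted p = 0.153 from edgeR). Elovl4, Scd3 and Scd4 had too few counts to be tested. Of the 6 genes for the other steps of the elongation cycle, 0 were called by edgeR, and 2 were higher and 0 lower at an unadjusted p under 0.05. These were the dehydratase Hacd3 (log2 fold change 0.60, adjusted p = 0.0697 from edgeR), whose groups did not overlap, and the ketoreductase Hsd17b12 (0.44, adjusted p = 0.121 from edgeR). Hacd3 passed in DESeq2 (adjusted p = 0.0122) but not in limma-voom (adjusted p = 0.0644). The dehydratase genes Hacd1, Hacd2 and Hacd4 had log2 fold changes of 0.14, -0.24 and -0.50, and Tecr, which performs the last reduction of each round, had 0.023, with adjusted p from 0.214 to 0.940 in edgeR.

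**Figure D5:**
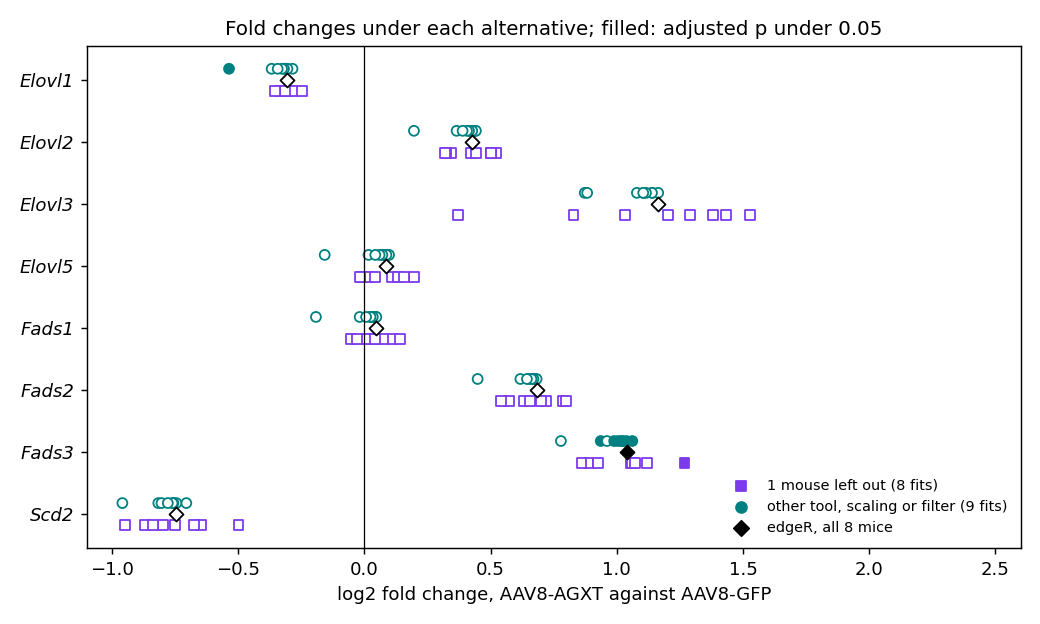
Log2 fold change of each of the 8 genes (x axis) in edgeR with TMM and under the 17 alternatives, with filled symbols where the adjusted p was under 0.05. Fads3 stays above 0 under every alternative drawn and is filled in 8 of the 17, whereas Elovl5 and Fads1 scatter around 0.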

How the data were processed

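Liver RNA of 8 mice was sequenced by the authors as stranded paired-end mRNA libraries, 1 for each mouse. From the study's methods and the submitters' processing notes, reads were trimmed with Trimmomatic 0.35, aligned to GRCm38 by HISAT2 2.1.0.13 and counted by HTSeq 0.6.0 on Ensembl release 90. The authors deposited raw counts per gene without normalization, and the strand option is not stated. Tallies that name no gene, 30.9 to 43.7% of pairs, were left out of library sizes. Of 52636 genes, 52489 matched GENCODE M21, which gave positions and exon lengths.

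Counts were tested in R 4.3.3 with edgeR 4.0.16 (filterByExpr, TMM, quasi-likelihood F test, not robust, with treatment as sole term), with Benjamini-Hochberg adjustment over the 15248 genes kept. The common biological coefficient of variation was 23.3%. Alternatives used DESeq2 1.42.0, limma 3.58.1 (voom, with and without quality weights), robust estimation, DESeq2 or upper-quartile factors, total counts, no count filter, at least 10 counts in every mouse, and each mouse left out in turn. Ratios of log2 CPM (prior count 2, or 0.5 as an alternative) were tested by two-sided exact permutation over 70 arrangements. The scripts were tested on simulated data. With 1 library for each mouse, the tests set each difference against the spread between mice, from which variation between libraries cannot be separated.

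The 8 genes, the pathway and marker lists and the tests were chosen with earlier results of these data known. The text names all 8 genes, the genes of both lists of related enzymes, any gene of a list with an adjusted p under 0.05 (except an item that is not reported here), and for the smallest p in each direction the 5 genes most alike across mice. Motifs were searched as exact letters on both strands.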

Additional observations from a re-analysis of the deposited data

How the results depend on the processing

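The log2 fold changes of Fads2, Fads3, Elovl2 and Elovl3 stayed above 0 and those of Elovl1 and Scd2 below 0 under all 17 alternatives. With each mouse left out, the log2 fold change lay between -0.019 and 0.20 for Elovl5 and between -0.053 and 0.14 for Fads1. Elovl5 turned negative with total counts (-0.16), without mouse 311 (-0.011) and without mouse 308 (-0.019). Fads1 did so with upper-quartile factors (-0.019), with total counts (-0.19), without mouse 311 (-0.053) and without mouse 309 (-0.028). Of the 8 genes, 2 were called higher by DESeq2, 0 with upper-quartile factors (3 at an unadjusted p under 0.05 in edgeR, as were 10.2% of all genes), 0 with total counts (2 unadjusted, and 4.07% of all genes) and 0 to 1 with each mouse left out (2 to 3 unadjusted, and 8.51 to 13.7% of all genes). With total counts 1 was called lower (2 lower at an unadjusted p under 0.05 in edgeR, as were 27.4% of all genes). Over all genes, the 374 higher and 290 lower calls became 1054 and 1024 with DESeq2, 804 and 606 with quality weights and 144 and 857 with total counts. With each mouse left out they ranged from 2 to 379 higher and from 0 to 325 lower, with 2 and 0 without mouse 311, 11 and 4 without mouse 314, 12 and 2 without mouse 319, 86 and 91 without mouse 308, 114 and 79 without mouse 303, and 226 and 185 without mouse 316. The cause was not tested. Fads2 passed under DESeq2 alone and had adjusted p from 0.0543 to 0.204 in edgeR with each mouse left out. The Fads1 to Fads2 difference stayed at the smallest p its exact permutation test allows (p = 0.0286) in all 8 fits with a mouse left out. Groups that do not overlap stay apart when a mouse is removed, so this p was fixed in advance and adds no support. No paired analysis was possible because each mouse carries its own animal number and the groups share none. Counts for each gene and liver ran from 77 for Scd2 in mouse 308 to 23921 for Elovl5. How the spread of each gene between mice compares with counting error was not tested.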

Other observations

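Genes around the same pathway were counted from the lists of related steps. Abcd3, a transporter of the peroxisomal membrane, from the list for peroxisomal shortening of very-long-chain fatty acids, was called higher (log2 fold change 0.76, SE 0.16, edgeR adjusted p = 0.0376). Among genes that oxygenate polyunsaturated fatty acids, Ephx2, which hydrolyses their epoxides, was the 1 of 7 tested that was called (log2 fold change 0.82, adjusted p = 0.0465 from edgeR).

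Of 10 genes that regulate desaturases and elongases, 2 were called higher and 0 lower by edgeR, with 4 higher and 1 lower at an unadjusted p under 0.05. Scap, the escort of the sterol regulatory proteins, had a log2 fold change of 0.60 (adjusted p = 0.0450 from edgeR) and Ppara, a nuclear receptor for fatty acids, one of 0.89 (adjusted p = 0.0376 from edgeR). Of 4 genes that supply electrons to desaturases 0 were called by edgeR, with 0 higher and 1 lower at an unadjusted p under 0.05. Of 9 tested genes for activation and phospholipid acylation of polyunsaturated fatty acids 0 were called by edgeR, with 2 higher and 1 lower unadjusted. The medians of these 2 lists were -0.070 and 0.16.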
